A study of Mus musculus with 8 samples.

Results

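In NMuMG cells, a mouse mammary gland epithelial line, 50 of the 21240 genes counted were at least 2-fold higher after 30 h than after 6 h in the vehicle DMSO and, under BRM014, rose no more than 1.3-fold over the same time or were lower. Their BRM014 30 h to 6 h ratio ran from 0.0661 (C4bp) to 1.297 (Zfp362), with a median of 1.135, and 18 of the 50 had a lower mean at 30 h than at 6 h. They were chosen from CPM values (a gene's count divided by the column total of its library and multiplied by 1000000), as means of the 2 libraries of a group. A gene was taken when its DMSO 30 h mean was at least 4 CPM, its DMSO 30 h to 6 h ratio at least 2, its BRM014 30 h to 6 h ratio at most 1.3 and its BRM014 to DMSO ratio at 6 h at least 0.5. Symbols starting with Cldn, Krt, Itg, Mmp, Ccl, Cxcl, Il1 or Slc were left out. The rule therefore used the means of all 4 groups, and the levels and log2 differences of these genes are given below as descriptions, without a test.

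The 4 groups were DMSO for 6 h, DMSO for 30 h, BRM014 for 6 h and BRM014 for 30 h, with 2 libraries each. All 8 libraries came from wild-type NMuMG cells grown with serum and insulin, and the labels name no dose of BRM014. No untreated or 0 h sample was used here, so DMSO itself, time in culture and the growing density of the cells cannot be told apart in the 30 h against 6 h comparison. A single cell line was studied. Because RNA was taken in bulk, fewer cells making a transcript and less of it per cell cannot be told apart.

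BRM014 blocks the ATPase activity of SMARCA4 and SMARCA2, the alternative motors of the SWI/SNF complexes. These complexes use ATP to slide or evict nucleosomes, which keeps enhancers and some promoters open to transcription factors. NMuMG cells are widely used to study how epithelial cells keep or lose their state.

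Library totals ranged from 17859693 to 29955366 counts. Among the epithelial markers, Cdh1, Krt8, Krt18 and Krt19 were above 1 CPM in all 8 libraries, whereas Epcam, Cldn3 and Cldn7 were at 0 counts in all of them and Cldn4 stayed under 0.5 CPM. The summed markers of immune cells (2.34 to 7.81 CPM), endothelial cells (0.267 to 0.827 CPM) and fibroblasts (0.723 to 2.88 CPM) were low next to the summed epithelial markers (5566 to 8877 CPM). Of these markers, 8 of 9 immune, 7 of 8 endothelial and 6 of 8 fibroblast genes stayed under 0.5 CPM in every library. Adgre1, Tyrobp, Emcn and Lum were at 0 in every library. Most of the immune sum was Cd68, at 2.14 to 7.66 CPM. The summed markers of adipocytes were at 2.86 to 9.27 CPM, mostly Pparg (2.74 to 8.96). Those of neurons were at 7.03 to 13.5 CPM, mostly Map2 (5.68 to 12.4), and those of muscle at 0.336 to 0.998. The fibroblast sum was highest in DMSO at 30 h (2.19 and 2.88 CPM), against 1.05 to 1.55 in DMSO at 6 h, 0.723 to 0.772 under BRM014 at 6 h and 1.18 to 1.37 under BRM014 at 30 h. Most of it was Col1a1, which encodes a collagen chain, at 1.99 and 1.49 CPM in DMSO at 30 h and at most 1.002 elsewhere, and Pdgfra, a growth factor receptor, at 0.362 to 0.768. The part of this course in the values of the 50 genes was not tested. Replicate 2 exceeded replicate 1 for 42 of the 50 genes in DMSO at 6 h (57.4% of all genes tested), with a median ratio of 1.24 against 1.03 over all genes tested. It did so for 35 in DMSO at 30 h (45.6%), 36 in BRM014 at 6 h (52.3%) and 21 in BRM014 at 30 h (42.9%). The part of this imbalance in the values below was not tested, and each key gene is therefore given library by library.

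The rise in DMSO separated the libraries for all 50 genes: both 30 h libraries lay above both 6 h libraries, and in none did both lie below. Over the 11835 genes that passed the low-count filter, among them all 50, 42.5% lay above and 25.6% below in this way, but the rule asked for a 2-fold ratio and nothing is read from the count. Under BRM014, 18 of the 50 had both 30 h libraries above both 6 h libraries (40.2% of all genes tested), 8 had both below (31%) and 24 overlapped. At 6 h, BRM014 was above DMSO in all libraries for 14 genes (41.2%), below for 18 (26.5%) and overlapping for 18. At 30 h it was below DMSO for 42 (30.4%), above for 4 (36%) and overlapping for 4. The rule limits these comparisons as well and largely fixes the one at 30 h, so nothing is read from these counts either. The median log2 difference between 30 h and 6 h was 1.21 for the 50 genes in DMSO and 0.13 under BRM014, beside medians near 0 over all genes tested (0.00654 and 0.00925).

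The 50 genes were 11.4% of the 438 vehicle-induced genes, those that met the level and the 2-fold ratio in DMSO after the same prefixes were left out. Another 185 (42.2%) were at least 2-fold higher with time under BRM014 as well, 110 (25.1%) had a BRM014 ratio between 1.3 and 2, and 93 (21.2%) were already under 0.5 of the DMSO level at 6 h. The median BRM014 to DMSO ratio at 6 h was 0.871 for the 50 genes, 1.16 for the 185 and 0.245 for the 93, and at 30 h it was 0.415, 1.22 and 0.086. In DMSO, the medians of the 30 h to 6 h ratio were closer together (2.45, 2.59 and 3.34). All these genes had to reach a ratio of 2 in DMSO. They were then split by the BRM014 to DMSO ratio at 6 h and the BRM014 time ratio. These contrasts were therefore largely fixed in advance.

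**Figure D1:**
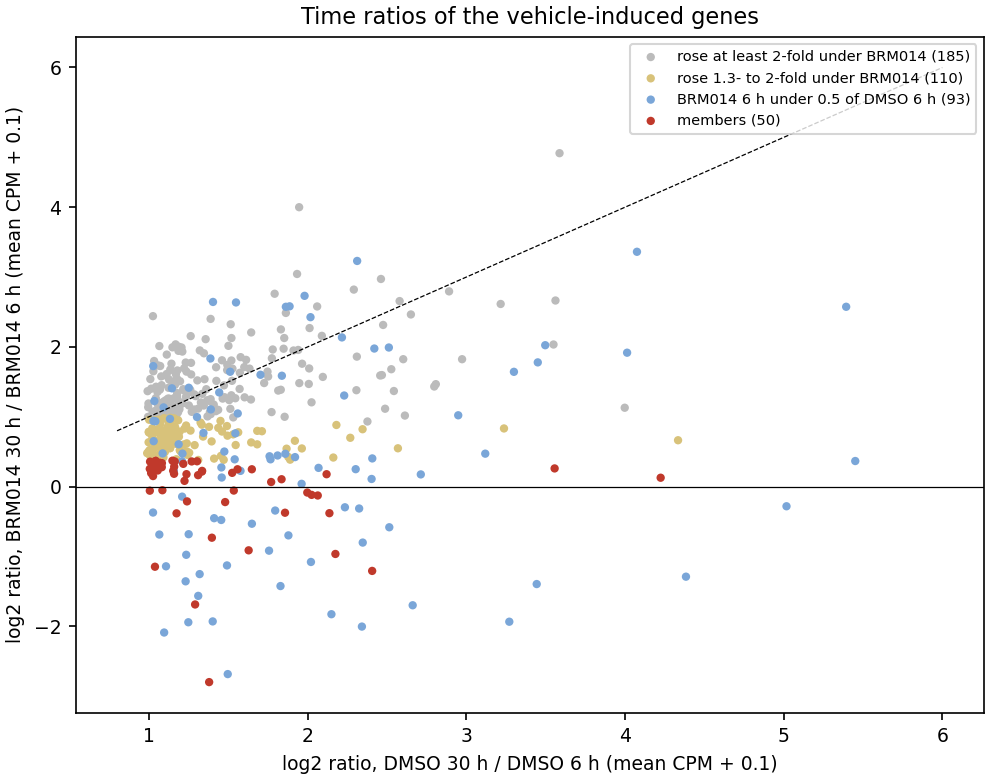
Log2 ratio of 30 h to 6 h in DMSO (horizontal) and in BRM014 (vertical) for the 438 vehicle-induced genes, each point a gene, from group means of 2 libraries with 0.1 CPM added. The 50 genes (red) lie near or below the line at 0, and the dashed line marks equal ratios in DMSO and BRM014.

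Membership was narrow at its edges. Ttc36 (4.04 CPM) and Itih2 (4.1) were just inside the limit on the DMSO 30 h level, and Ndufb4 (3.75) and Adgrl2 (3.54) just outside. For the DMSO ratio, Map2k6 (2.015) and Mcrip1 (2.017) were inside, and Sim2 and Spns2 (1.996 each) outside. For the BRM014 ratio, Zfp362 (1.297) and Sertad3 (1.296) were inside, and Idh1 and Fam53b (1.308 each) outside. For the ratio at 6 h, Itih2 (0.502) and Irs1 (0.524) were inside, and Alb (0.461) and Antxr1 (0.412) outside. Applied to 1 replicate alone, 33 of the 50 genes met all ratios in replicate 1 and 33 in replicate 2. Leaving out each library in turn gave between 35 genes (without DMSO 6 h replicate 1) and 99 (without DMSO 6 h replicate 2). The 16 genes that met the rule in all 8 of these cases were Gstm2, Tox, Gc, Ephb6, Tmem176b, Rab38, Aamdc, Adgrg1, Calml4, Fhl1, Mapt, Fos, Ifi27l2b, Selenop, Ncald and Bace2.

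The absence of a rise under BRM014 did not mean the same level at 30 h for all 50. At 30 h, 33 genes were at 0.5 of the DMSO level or less, 9 were between 0.5 and 0.8, and 8 were at 0.8 or more. In 4 genes the BRM014 mean was the higher one at 30 h: Mcrip1 (2.14 times DMSO), 4933431E20Rik (2.08), Sertad3 (1.52) and Tm7sf3 (1.34). These 4 were already higher under BRM014 at 6 h, with ratios of 3.36, 3.93, 2.43 and 2.25, so their course under BRM014 ran above the DMSO course. The name "blocked" thus describes the change with time, and not the level, for these genes. Of the 16 genes at 1.25 times DMSO or more at 6 h, 3 were at 0.5 or less at 30 h, 5 were between 0.5 and 0.8 and 8 were at 0.8 or more. All 20 genes at 0.8 or less at 6 h were at 0.5 or less at 30 h, a pairing that the 4 thresholds largely fix.

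**Figure D2:**
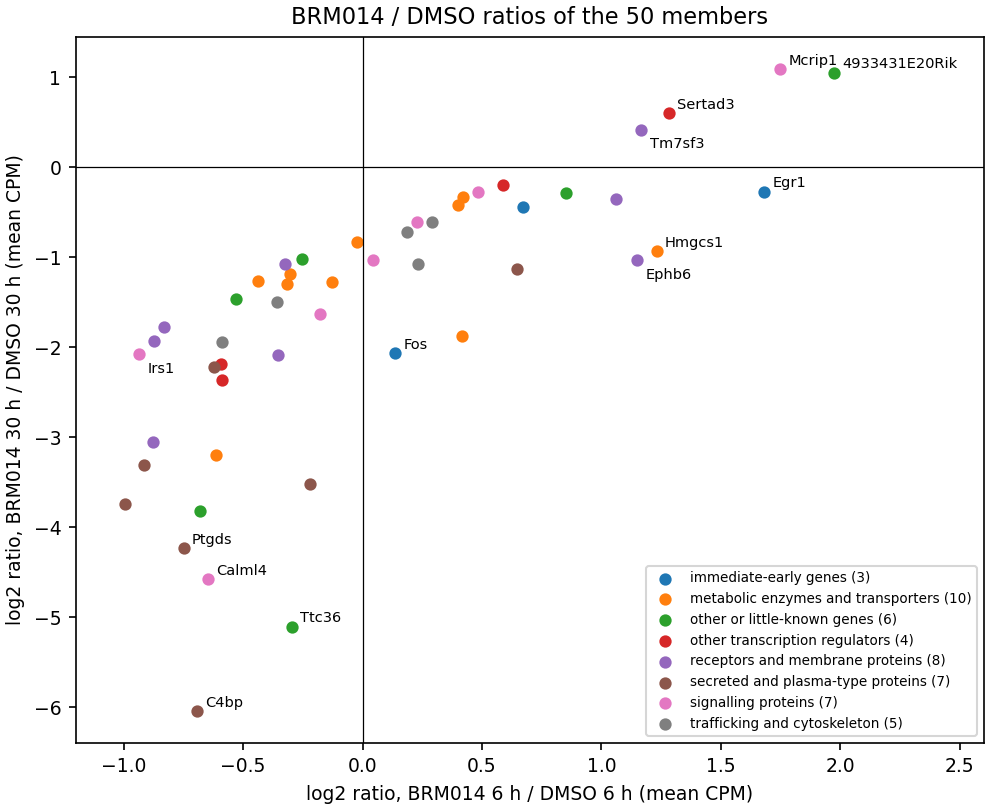
Log2 ratio of BRM014 to DMSO at 6 h (horizontal) and at 30 h (vertical) for the 50 genes, each point a gene coloured by role, from group means of 2 libraries. C4bp lies lowest at 30 h, and Mcrip1, 4933431E20Rik, Sertad3 and Tm7sf3 are the 4 points above 0 at 30 h.

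**Figure D3:**
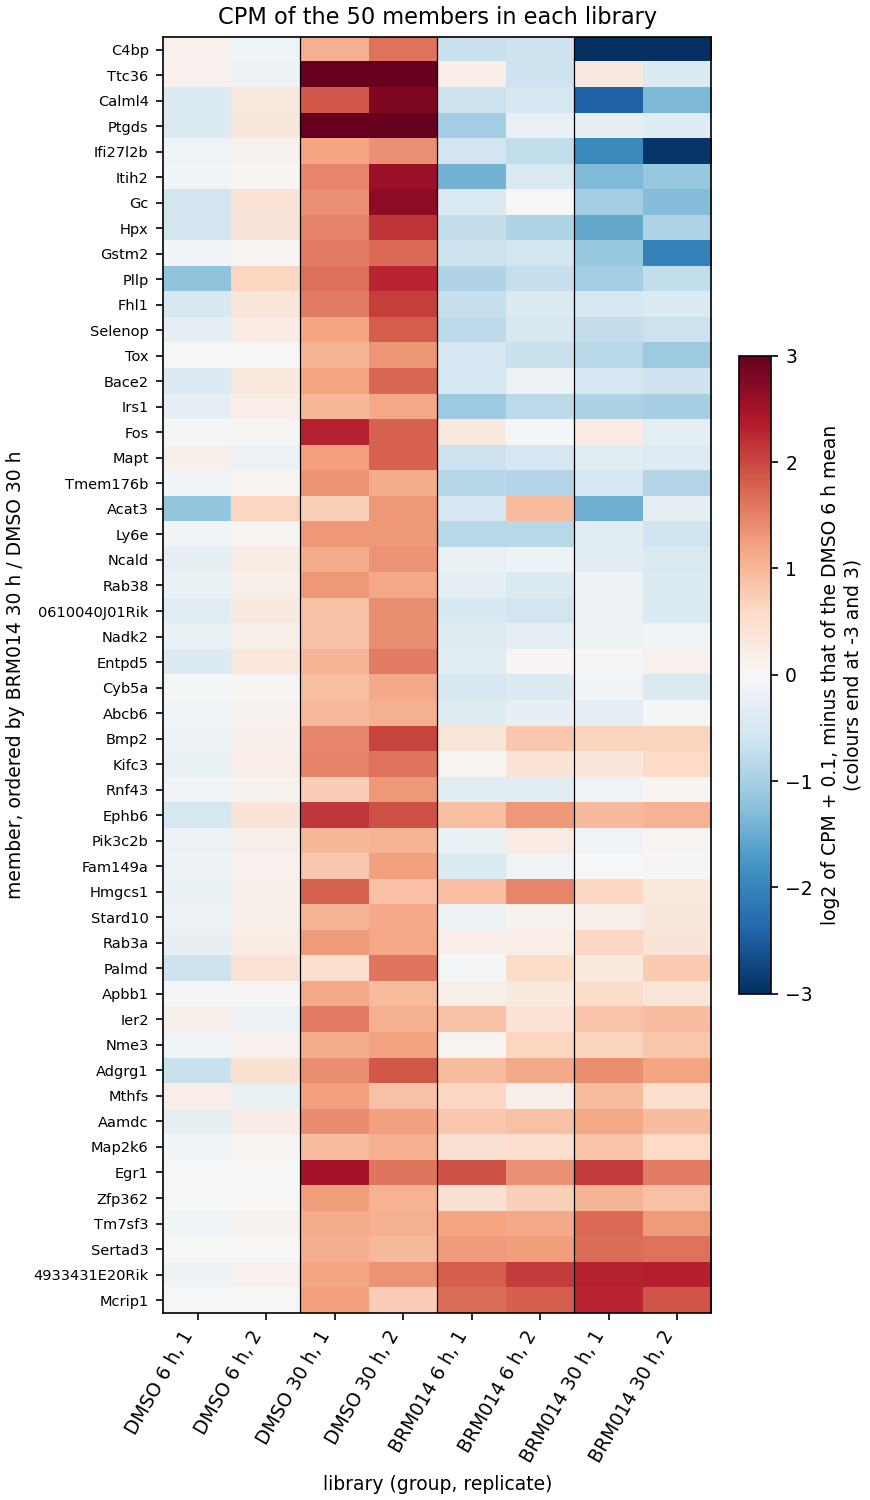
Log2 of CPM + 0.1 in each of the 8 libraries minus the log2 of the DMSO 6 h mean + 0.1, for the 50 genes ordered by their BRM014 to DMSO ratio at 30 h. The 2 DMSO 30 h columns are red in every row, and the BRM014 columns run from blue at the top to red at the bottom.

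Among the 7 genes of secreted proteins, the carriers, inhibitors and enzymes Selenop, C4bp, Gc, Hpx, Itih2 and Ptgds were at 0.0152 to 0.215 of the DMSO level under BRM014 at 30 h. Bmp2, a signalling ligand, was at 0.457, above the median of 0.415 for the 50. The median of the 7 was 0.0872. Their median level in DMSO at 30 h was 4.78 CPM, and Selenop alone was abundant.

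Upstream sequence is shown for 2 of them and, as a contrast, for 2 genes of other roles, because the starts of these genes differ widely in CG content. The sequences are from RefSeq on GRCm38.p6, cover the 250 bases before the annotated start and are written 5′ to 3′ on the gene's strand, with CG in capitals. Gc (chr5:89457899-89458148, minus strand) has 0 CG, C4bp (chr1:130661619-130661868, minus strand) has 2, Fos (chr12:85473640-85473889, plus strand) has 15 and Mcrip1 (chr11:120549728-120549977, minus strand) has 32.
Gc: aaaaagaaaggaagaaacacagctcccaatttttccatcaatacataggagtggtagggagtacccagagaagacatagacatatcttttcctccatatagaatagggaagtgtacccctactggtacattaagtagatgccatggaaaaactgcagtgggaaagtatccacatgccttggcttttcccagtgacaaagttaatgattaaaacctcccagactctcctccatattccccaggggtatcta
C4bp: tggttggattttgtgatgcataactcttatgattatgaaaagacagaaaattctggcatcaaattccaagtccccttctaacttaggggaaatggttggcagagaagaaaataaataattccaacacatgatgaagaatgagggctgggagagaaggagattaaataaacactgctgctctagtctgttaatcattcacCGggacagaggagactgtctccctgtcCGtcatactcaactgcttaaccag
Fos: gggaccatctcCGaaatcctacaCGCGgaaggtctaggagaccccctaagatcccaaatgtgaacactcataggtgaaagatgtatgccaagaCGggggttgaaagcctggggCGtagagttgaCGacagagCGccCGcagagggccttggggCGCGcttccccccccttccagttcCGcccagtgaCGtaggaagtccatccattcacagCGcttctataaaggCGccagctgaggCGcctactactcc
Mcrip1: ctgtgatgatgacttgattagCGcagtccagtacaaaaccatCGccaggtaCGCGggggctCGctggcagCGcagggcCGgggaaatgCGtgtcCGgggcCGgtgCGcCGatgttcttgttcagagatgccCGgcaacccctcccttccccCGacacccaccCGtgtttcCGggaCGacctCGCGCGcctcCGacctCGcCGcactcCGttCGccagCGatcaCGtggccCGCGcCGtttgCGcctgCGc

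Gc and C4bp, with 0 and 2 CG, were low under BRM014 at 30 h, and Mcrip1, with 32, was high. Fos, with 15, was at 0.238 of DMSO at 30 h. Promoters were found for 32 of the 50 genes (64%, under the 80% set for a summary), so any summary of promoter properties over the set is void. The 4 starts were picked by hand for contrast and show only themselves, so no link between CG and level is read from them.

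Short motifs in the same windows are shown because they mark known binding letters of factors discussed below, in capitals. Itih2 and Ptgds hold TGACTCA, the AP-1 site, at 149 and 35 bases before the start. Hmgcs1 holds TCACCCCAC, a form of the sterol element, 137 bases before it, and Fos a TATA box 33 bases before it.
Itih2 TGACTCA: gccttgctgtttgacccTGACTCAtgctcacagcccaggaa
Ptgds TGACTCA: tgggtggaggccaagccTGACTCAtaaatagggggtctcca
Hmgcs1 TCACCCCAC: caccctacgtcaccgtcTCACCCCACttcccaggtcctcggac
Fos TATAAA: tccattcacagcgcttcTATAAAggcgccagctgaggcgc

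Both strands of all 32851 promoters of that table, 300 bases each with the 50 after the start, were searched with the same letters. TGANTCA was in 7.81% of them, TATAAA in 13.6% and TCACNCCAC in 1.24% (408 promoters), so each occurs in many promoters. The windows shown were picked from more matches in the set. TGANTCA was also in Adgrg1 and Map2k6, TCACNCCAC in Rab3a, and TATAAA in Abcb6, Map2k6, Selenop and Fhl1. A match is a run of letters and was not tested as a binding site.

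Selenop (Entrez 20363) encodes selenoprotein P, the selenium carrier of plasma. It was at 154 and 223 CPM after 6 h and 426 and 666 after 30 h of DMSO, and 110.1 and 134 after 6 h and 115 and 120 after 30 h of BRM014. Both DMSO 30 h libraries lay above the other 6, and both BRM014 30 h libraries lay within the range of the BRM014 6 h libraries. The log2 difference between 30 h and 6 h was 1.45 ± 0.19 (SE) in DMSO and -0.10 ± 0.19 under BRM014. Its exons overlap those of Ccdc152 on the other strand, and the strand setting of the counting was not given, so reads of these 2 genes could not be assigned with certainty.

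C4bp (Entrez 12269) encodes the C4b-binding protein, an inhibitor of complement. Its levels were 1.95 and 1.6 CPM in DMSO at 6 h, 3.82 and 5.75 in DMSO at 30 h, 1.08 and 1.11 in BRM014 at 6 h, and 0.112 and 0.0334 in BRM014 at 30 h. The DMSO 30 h libraries lay above those of 6 h and the BRM014 30 h libraries below all others, with 200 counts in the DMSO 30 h libraries and 3 in the BRM014 30 h libraries. The ratio of DMSO to BRM014 at 30 h, from the counts of both libraries together, was 78, the largest among the 50 genes. It describes a gene chosen by these means, is imprecise at 3 counts and carries no interval.

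Gc (Entrez 14473) encodes the vitamin D-binding protein. Its levels were 1.14 and 2.3 CPM after 6 h and 4.59 and 11.7 after 30 h of DMSO, and 1.24 and 1.71 after 6 h and 0.784 and 0.634 after 30 h of BRM014. The DMSO 30 h libraries differed from each other by more than 2-fold yet both lay above all others, and both BRM014 30 h libraries lay below all others. Hpx (Entrez 15458), for the heme-binding plasma protein hemopexin, was at 0.761 and 1.55 CPM in DMSO at 6 h, 3.43 and 5.48 in DMSO at 30 h, 0.671 and 0.557 in BRM014 at 6 h, and 0.336 and 0.568 in BRM014 at 30 h. Itih2 (Entrez 16425), for a heavy chain of the inter-alpha-trypsin inhibitors that bind hyaluronan, was at 0.808 and 0.901 CPM after 6 h and 2.55 and 5.66 after 30 h of DMSO, and 0.258 and 0.6 after 6 h and 0.28 and 0.334 after 30 h of BRM014. In both genes the DMSO 30 h libraries were the 2 highest and the BRM014 libraries stayed below both DMSO 6 h libraries.

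Ptgds (Entrez 19215) encodes prostaglandin D synthase of the lipocalin type, a secreted carrier and enzyme. Its levels were 0.285 and 0.551 CPM in DMSO at 6 h, 5.37 and 6.62 in DMSO at 30 h, 0.155 and 0.343 in BRM014 at 6 h, and 0.336 and 0.3 in BRM014 at 30 h. Only DMSO at 30 h exceeded 1 CPM, and the 6 other libraries overlapped between groups. Bmp2 (Entrez 12156), a secreted ligand of the BMP receptors, differed from the other 6 in being higher under BRM014 at 6 h: it was at 1.14 and 1.45 CPM after 6 h and 3.76 and 5.57 after 30 h of DMSO, and 1.71 and 2.36 after 6 h and 2.13 and 2.14 after 30 h of BRM014. Both BRM014 30 h libraries lay between the DMSO 6 h and DMSO 30 h libraries.

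**Figure D4:**
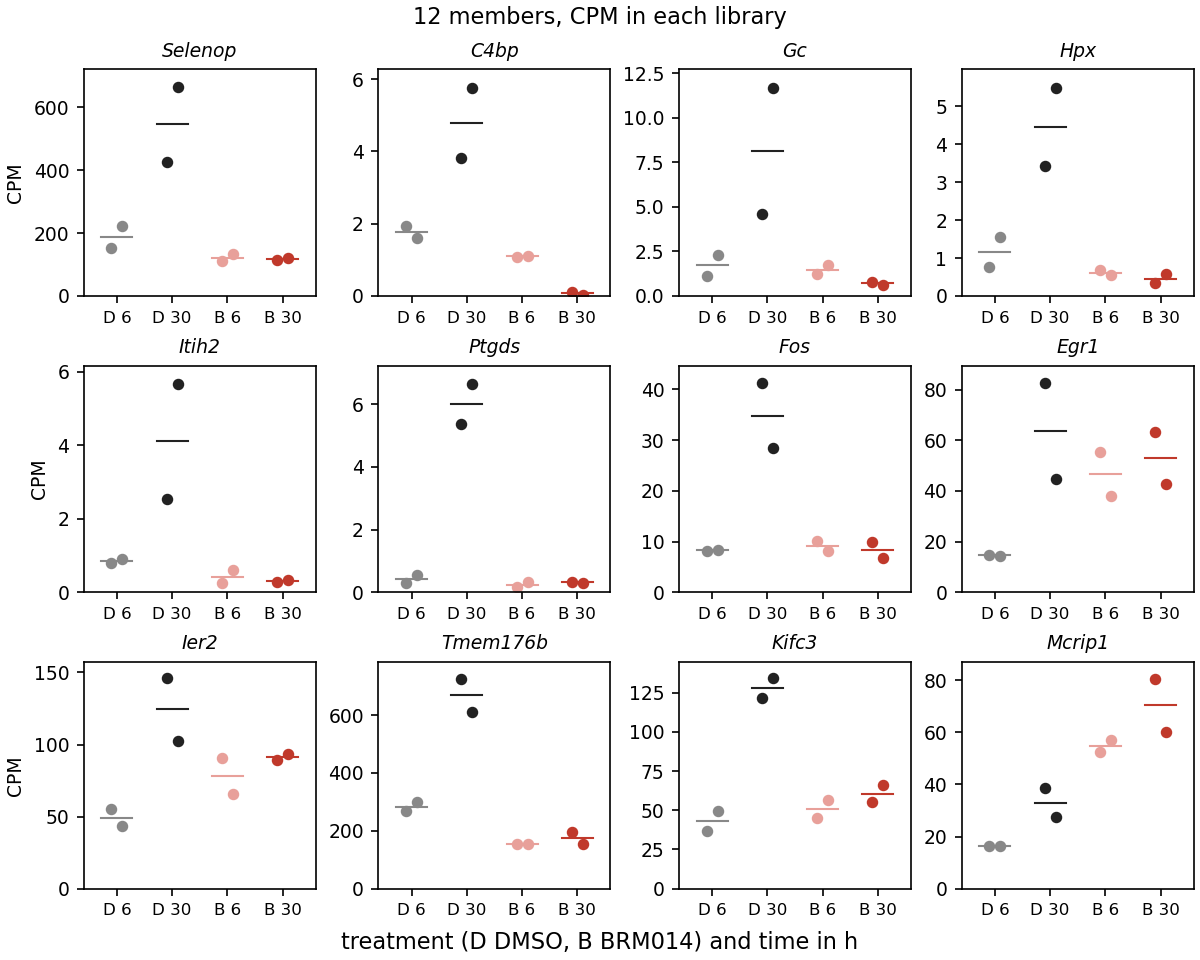
CPM in each library (points) and group mean (bars) for 12 of the 50 genes, with D for DMSO, B for BRM014 and the time in h. All but Egr1 and Mcrip1 show both DMSO 30 h points above all others, while Mcrip1 shows both BRM014 groups above DMSO.

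The 3 immediate-early genes of the set, Fos, Egr1 and Ier2, belong to a class whose transcription growth factors or stress switch on within minutes. Their levels under BRM014 differed: Fos was near its DMSO 6 h level, and Egr1 and Ier2 were above it. Fos (Entrez 14281), a subunit of AP-1, was at 8.08 and 8.41 CPM in DMSO at 6 h, 41.2 and 28.4 in DMSO at 30 h, 10.1 and 8.06 in BRM014 at 6 h, and 9.86 and 6.74 in BRM014 at 30 h. Under BRM014, Fos stayed near its DMSO 6 h level at both times, and both DMSO 30 h libraries were more than 2-fold above every other library. Egr1 (Entrez 13653), a zinc finger transcription factor, was at 14.7 and 14.5 CPM after 6 h and 82.6 and 44.8 after 30 h of DMSO, and 55.4 and 38.1 after 6 h and 63 and 42.7 after 30 h of BRM014. It was already 3.2 times the DMSO level under BRM014 at 6 h, and the BRM014 30 h libraries overlapped the DMSO 30 h libraries. Ier2 (Entrez 15936), a small nuclear regulator, was at 55 and 43.3 CPM in DMSO at 6 h, 146 and 103 in DMSO at 30 h, 90.5 and 66 in BRM014 at 6 h, and 89.5 and 93.6 in BRM014 at 30 h. It too was higher under BRM014 at 6 h (1.59 times DMSO), without overlap, and lower at 30 h (0.736). The difference between the time effects, BRM014 minus DMSO, was -2.17 ± 0.30 on the log2 scale for Fos, -1.90 ± 0.36 for Egr1 and -1.05 ± 0.25 for Ier2.

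Receptors and other membrane proteins made up 8 genes, of which 6 were at 0.5 or less at 30 h. Tmem176b (Entrez 65963), a membrane protein of immune and epithelial cells, had the highest DMSO 30 h level of the 50 genes. It was at 269 and 298 CPM after 6 h and 725 and 612 after 30 h of DMSO, and 156 and 154 after 6 h and 196 and 155 after 30 h of BRM014. The BRM014 libraries of both times lay below both DMSO 6 h libraries. Its exons overlap Tmem176a on the other strand, so its counts carry the same uncertainty as those of Selenop. Ly6e, a GPI-anchored surface protein, was at 0.561 of DMSO at 6 h and 0.292 at 30 h, and Bace2, an aspartic protease, at 0.783 and 0.235.

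Pllp (Entrez 67801) encodes plasmolipin, a protein of myelin and epithelial membranes. Its levels were 0.475 and 2 CPM in DMSO at 6 h, 4.1 and 6.4 in DMSO at 30 h, 0.62 and 0.729 in BRM014 at 6 h, and 0.56 and 0.701 in BRM014 at 30 h. The 2 DMSO 6 h libraries differed more than 4-fold from each other, so its ratio rests on a wide spread, although both DMSO 30 h libraries were the highest. Rnf43 (Entrez 207742) encodes the ubiquitin ligase that removes Frizzled receptors and so dampens Wnt signalling. It was at 11.5 and 13.4 CPM after 6 h and 20.8 and 31 after 30 h of DMSO, and 9.92 and 9.99 after 6 h and 11.4 and 13.2 after 30 h of BRM014. Both DMSO 30 h libraries were above all others, and the BRM014 30 h libraries (11.4 and 13.2) were close to the DMSO 6 h libraries.

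Ephb6, an Eph receptor without kinase activity, and Adgrg1, an adhesion G protein-coupled receptor, were above DMSO under BRM014 at 6 h by ratios of 2.22 and 2.09. At 30 h Ephb6 was at 0.49 of DMSO without overlap, and Adgrg1 at 0.783 with overlapping libraries. Tm7sf3, a multi-pass membrane protein, was above DMSO at both times, and its exons overlap Med21 on the other strand.

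Among 7 signalling genes, 4 were at 0.5 or less at 30 h. Calml4 (Entrez 75600), a calmodulin-like protein, showed the widest gap of these. It was at 0.998 and 1.7 CPM in DMSO at 6 h, 5.15 and 10.04 in DMSO at 30 h, 0.827 and 0.9 in BRM014 at 6 h, and 0.168 and 0.467 in BRM014 at 30 h. Both BRM014 30 h libraries were below every other library. Irs1, the adaptor that carries the insulin signal, was at 0.524 of DMSO at 6 h and 0.237 at 30 h, in cells whose medium contained insulin. Ncald, a neuronal-type calcium sensor, was at 0.884 and 0.323, and Pik3c2b, a lipid kinase, at 1.03 and 0.49.

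Mcrip1 (Entrez 192173), a small protein that ties ERK signalling to the corepressor CtBP, ran the other way in level. It was at 16.2 and 16.4 CPM after 6 h and 38.5 and 27.4 after 30 h of DMSO, and 52.6 and 57.1 after 6 h and 80.5 and 60.3 after 30 h of BRM014. All 4 BRM014 libraries lay above all 4 DMSO libraries. Its log2 difference from DMSO was 1.67 ± 0.16 at 6 h and 1.06 ± 0.16 at 30 h. Map2k6, a kinase that activates p38, and Apbb1, an adaptor of the amyloid precursor protein, were both above DMSO at 6 h (1.4 and 1.17) and below it at 30 h (0.829 and 0.659), without overlap at either time.

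The 4 other transcription regulators split evenly. Tox, an HMG-box factor known from T cells, was at 0.663 of DMSO at 6 h and 0.22 at 30 h, and Fhl1, a LIM-only protein, at 0.665 and 0.195. Sertad3 (Entrez 170742), a coactivator linked to E2F and RPA, was at 6.61 and 6.51 CPM in DMSO at 6 h, 14.2 and 13.1 in DMSO at 30 h, 16.1 and 15.8 in BRM014 at 6 h, and 21.1 and 20.3 in BRM014 at 30 h. Replicates of Sertad3 agreed closely and the BRM014 libraries of both times were above all DMSO libraries. Zfp362, a zinc finger protein, was above DMSO at 6 h (1.5) and slightly below at 30 h (0.873).

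The 10 metabolic enzymes and transporters had a median BRM014 to DMSO ratio of 0.429 at 30 h: 6 were at 0.5 or less at 30 h and 4 between 0.5 and 0.8. Cyb5a (Entrez 109672), the electron donor cytochrome b5, was at 133 and 141 CPM after 6 h and 255 and 300.2 after 30 h of DMSO, and 98.6 and 104 after 6 h and 129.9 and 102 after 30 h of BRM014. BRM014 was below DMSO at both times, without overlap. Stard10 (Entrez 56018), a phospholipid transfer protein, was at 88.1 and 109.6 CPM in DMSO at 6 h, 201 and 218 in DMSO at 30 h, 89.2 and 106 in BRM014 at 6 h, and 112 and 124 in BRM014 at 30 h. Its libraries overlapped those of DMSO at 6 h and were lower at 30 h.

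Hmgcs1 (Entrez 208715), which makes HMG-CoA for sterol synthesis, changed sides. It was at 3.52 and 4.56 CPM after 6 h and 14.1 and 7.54 after 30 h of DMSO, and 7.59 and 11.4 after 6 h and 6.27 and 5.07 after 30 h of BRM014. BRM014 was above DMSO at 6 h and below it at 30 h, without overlap at either time, and the DMSO 30 h libraries differed nearly 2-fold. The log2 difference between 30 h and 6 h was 1.32 ± 0.30 in DMSO and -0.80 ± 0.28 under BRM014. Acat3, a cytosolic thiolase, had 1.4 and 4.03 CPM under BRM014 at 6 h. Replicate 2 was above replicate 1 in all 4 groups, least so in DMSO at 30 h (3.38 and 5.18 CPM). Acat3 overlaps Tcp1 on the other strand and resembles Acat2, so its values are uncertain.

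Gstm2, a glutathione transferase of a family of near copies, was at 0.109 of DMSO at 30 h, the lowest of the metabolic genes. Abcb6, a porphyrin transporter, Nadk2, the mitochondrial NAD kinase, and Entpd5, an ER nucleotidase, were at 0.441, 0.408 and 0.413. Mthfs of folate metabolism (0.799) and the nucleoside diphosphate kinase Nme3 (0.751) had the highest ratios of the 10, and the Mthfs libraries overlapped.

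Among 5 genes of trafficking and the cytoskeleton, 3 were at 0.5 or less at 30 h. Kifc3 (Entrez 16582), a minus-end kinesin that works at cell junctions, was at 37.1 and 49.7 CPM in DMSO at 6 h, 122 and 134 in DMSO at 30 h, 45.2 and 56.8 in BRM014 at 6 h, and 55.3 and 66 in BRM014 at 30 h. Both DMSO 30 h libraries were well above every other library, and the 2 BRM014 groups overlapped. The tau gene Mapt was at 0.26 of DMSO at 30 h, Rab38 of melanosome trafficking at 0.353, and Rab3a of secretory vesicles at 0.606. Palmd, a palmitoylated cytosolic protein, was at 0.656 with overlapping libraries.

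Of the 6 remaining genes, Ttc36 (Entrez 192653), a tetratricopeptide protein known from liver, had the largest DMSO ratio of the set, 33.3. It was at 0.143 and 0.1 CPM after 6 h and 2.99 and 5.09 after 30 h of DMSO, and 0.155 and 0.0429 after 6 h and 0.168 and 0.0668 after 30 h of BRM014. The gene was close to silent in every group but DMSO at 30 h, so its ratio stands on very few counts at 6 h. Ifi27l2b (Entrez 217845), of a family with near copies, was at 3.38 and 4.01 CPM in DMSO at 6 h, 8.58 and 9.78 in DMSO at 30 h, 2.43 and 2.19 in BRM014 at 6 h, and 0.896 and 0.401 in BRM014 at 30 h. Its BRM014 30 h libraries were lower than all others. Fam149a (Entrez 212326), a gene of little-known function, was at 85.3 and 103 CPM after 6 h and 164 and 222 after 30 h of DMSO, and 70.05 and 87.6 after 6 h and 95.5 and 95.7 after 30 h of BRM014, with both DMSO 30 h libraries above the rest. Aamdc and 0610040J01Rik were at 0.821 and 0.364 of DMSO at 30 h.

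The plasma-type members raised the question of whether other liver-type genes followed them. A list of liver-type plasma proteins was written after the 50 genes were known and holds 6 of them. Of its 48 other genes in the table, 12 passed the low-count filter. Of these 12, Alb, Apoc2, Hp, Proc and Trf exceeded 1 CPM in DMSO 30 h libraries alone, a group that can carry a gene past the filter, so they are given without a test. Among the other 7, Cp and Rbp4 were higher at 30 h than at 6 h in DMSO and Apob, Apoe and F12 were lower (edgeR, adjusted p under 0.05), against 18% and 17.2% of all genes tested. The median log2 change of the 7 was 0.02 in DMSO and -0.68 under BRM014. The call on F12 was lost with DESeq2 (adjusted p = 0.0623) and without either DMSO 6 h replicate or DMSO 30 h replicate 2 (edgeR, adjusted p = 0.0519 to 0.0767). The difference between the time effects was lower for Afp, Apob and Rbp4, against 2.59% of all genes, and the calls on Afp and Apob were lost in 3 and 6 of 15 alternative settings. Trf, Apoc2, Proc, Rbp4, Apob, Apoe, Afp and F12 are named after their values were seen.

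Alb, for serum albumin, was at 0.475 and 0.551 CPM in DMSO at 6 h, 3.93 and 9.21 in DMSO at 30 h, 0.258 and 0.214 in BRM014 at 6 h, and 0.056 and 0 in BRM014 at 30 h. It was missing from the 50 only through the limit at 6 h. The DMSO 30 h libraries held 281 counts and the BRM014 30 h libraries 1, too few for a ratio to be read. Hp, for haptoglobin, had 262 counts in DMSO at 30 h and 0 under BRM014 at 30 h, so no ratio is given. Trf, for transferrin, had 125 and 1 counts.

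Rbp4, the plasma retinol carrier, was abundant at 148 and 159 CPM after 6 h and 216 and 221 after 30 h of DMSO, and 54.3 and 56.1 after 6 h and 36.6 and 34.4 after 30 h of BRM014. It rose with time in DMSO (log2 0.42 ± 0.09, adjusted p = 0.00261) and fell under BRM014 (-0.68 ± 0.09, adjusted p = 0.000152), and the difference of -1.10 ± 0.13, adjusted p = 0.000257 held in all 15 alternative settings. Cp, for ceruloplasmin, rose in both (log2 2.33 ± 0.16, adjusted p = 2.33e-06 and 1.95 ± 0.17, adjusted p = 5.82e-06) although it was lower under BRM014 at 6 h (-2.05 ± 0.17, adjusted p = 2.17e-06), and its difference of -0.39 ± 0.23, adjusted p = 0.378 did not pass the test.

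**Figure D5:**
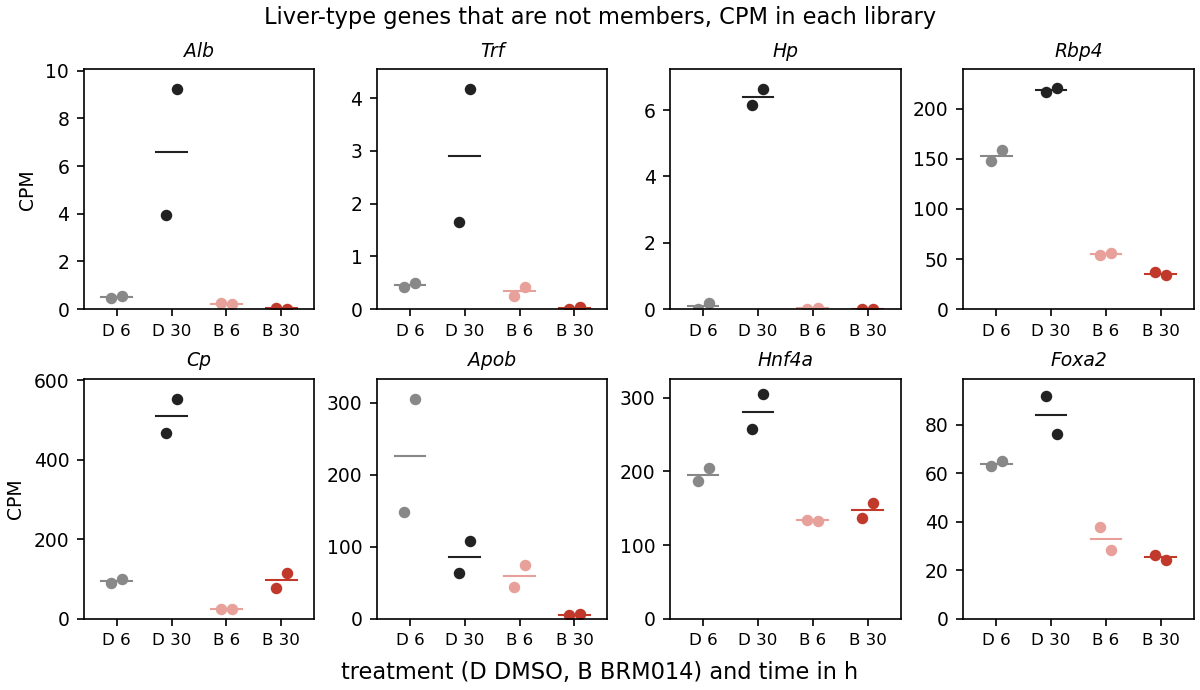
CPM in each library (points) and group mean (bars) for 8 liver-type genes outside the 50, with D for DMSO, B for BRM014 and the time in h. Alb, Trf and Hp exceed 1 CPM only in DMSO at 30 h, and Cp rises in both treatments.

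Transcription factors known for the liver were also expressed. A list of them was also written after the 50 were known. Of 10 tested genes of this list, 3 were higher at 30 h in DMSO, among them Hnf4a and Cebpa. Nr1h4 was lower, against 18% higher and 17.2% lower over all genes tested. Foxa3 exceeded 1 CPM in DMSO 30 h replicate 2 alone, so it is left out of these counts, but not of the next ones in other settings. The 3 became 5 without DMSO 6 h replicate 2 or with library totals in place of TMM scaling, and 6 with the replicate number as a block. The call on Nr1h4 in DMSO was lost with library totals and without either DMSO 6 h replicate or DMSO 30 h replicate 1. Hnf4a was at 186 and 205 CPM in DMSO at 6 h, 257 and 305 in DMSO at 30 h, 134 and 133 in BRM014 at 6 h, and 137 and 157 in BRM014 at 30 h, and its log2 change in DMSO was 0.44 ± 0.11, adjusted p = 0.00848. That call was lost without DMSO 6 h replicate 1 (adjusted p = 0.0591, edgeR) and without DMSO 30 h replicate 2 (adjusted p = 0.0541). Over all genes tested, 9.35% were higher and 14.4% lower under BRM014 at 6 h, and 16.8% and 19.1% at 30 h. Hnf4a was lower under BRM014 at 6 h already (log2 -0.63 ± 0.11, adjusted p = 0.000991). The difference between its time effects (-0.34 ± 0.16, adjusted p = 0.251) did not pass the test. For Foxa2 (lower) and Nr1h4 (higher) the difference passed, at -0.73 ± 0.19, adjusted p = 0.0373 and 1.51 ± 0.29, adjusted p = 0.00681. The call on Foxa2 was lost on leaving out any library except DMSO 30 h replicate 2 and BRM014 6 h replicate 2, each alone, and that on the difference of Nr1h4 was kept. Foxa2, Foxa3 and Nr1h4 are named after their values were seen.

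Complement and acute phase genes outside the 50 rose in DMSO as a group: 8 of 12 passed (18% of all genes), with a median log2 change of 2.42, and 9 of 12 were higher under BRM014 (19.6% of all genes), with a median of 1.78. Hp and Saa3, which exceeded 1 CPM in DMSO 30 h libraries alone, are left out of these counts. C3, the central complement component, rose in both, with log2 changes of 4.01 ± 0.23, adjusted p = 4.58e-07 in DMSO and 3.35 ± 0.25, adjusted p = 2.34e-06 under BRM014. Cfb, a protease of the alternative complement pathway, rose in DMSO (3.22 ± 0.21, adjusted p = 2.22e-06) and fell under BRM014 (-2.30 ± 0.45, adjusted p = 0.00176). Lbp, which binds lipopolysaccharide, rose in both, and less under BRM014. The difference was lower for 3 genes, Cfb, Lbp and C1s1, and higher for Cd55, against 2.59% and 3.89% of all genes. The call on C1s1 was lost in 6 of 15 alternative settings and that on Cd55 in 8, and both are named after their values were seen.

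The other immediate-early genes did not share a common course. Outside Fos, Egr1 and Ier2, 21 genes of a list written after the 50 were known were tested: 4 were higher at 30 h in DMSO (Jund, Egr2, Zfp36 and Btg2) and 8 were lower, beside 18% and 17.2% of all genes tested, with a median log2 change of -0.12. The call on Egr2 was lost without DMSO 6 h replicate 2 (edgeR, adjusted p = 0.0843) or DMSO 30 h replicate 1 (adjusted p = 0.052). Fosl1, another AP-1 subunit, was at 391 and 236 CPM after 6 h and 115 and 68.1 after 30 h of DMSO, and 306 and 278 after 6 h and 183 and 158 after 30 h of BRM014 and fell in DMSO (-1.88 ± 0.23, adjusted p = 0.00011). Btg2, an antiproliferative regulator, rose more in DMSO (2.09 ± 0.15, adjusted p = 2.85e-06) than under BRM014 (0.84 ± 0.14, adjusted p = 0.000675). The difference was lower for 3 genes, Btg2, Zfp36 and Srf, and higher for 5, Atf3, Fosl2, Ier3, Klf6 and Nr4a1, beside 2.59% and 3.89% of all genes. The 3 became 1 without DMSO 6 h replicate 2, BRM014 6 h replicate 1 or BRM014 30 h replicate 2. The 5 became 1 without DMSO 6 h replicate 1, 2 on leaving out replicate 2 of BRM014 at 6 h, 3 without either BRM014 30 h replicate and 8 with the replicate number as a block. Apart from Btg2, Fosl1 and Jund, these genes are named after their values were seen.

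Among 24 sterol synthesis genes beside Hmgcs1, in a list also written after the 50 were known, 8 were higher with time in DMSO (18% of all genes tested), with a median log2 change of 0.3, and the difference was lower for 6 (2.59% of all genes), among them Acat2, Mvk, Idi1, Fdps and Ebp, with a median of -0.6. Acat2, the cytosolic thiolase of the mevalonate pathway, rose in DMSO (0.51 ± 0.11, adjusted p = 0.00306) and fell under BRM014 (-0.38 ± 0.11, adjusted p = 0.015). The fall was no longer called without either BRM014 6 h replicate or BRM014 30 h replicate 1 (edgeR, adjusted p = 0.0529 to 0.126). Fdps, which makes farnesyl diphosphate, and Tm7sf2, a sterol reductase, rose in DMSO by 0.70 ± 0.12, adjusted p = 0.000851 and 1.36 ± 0.15, adjusted p = 4.78e-05. Under BRM014 Fdps changed by 0.04. Tm7sf2 rose there too, by 0.69 to 0.91 across the settings, and the difference between its time effects (-0.66 to -0.44) did not pass the test. The 8 became 4 without DMSO 6 h replicate 2, 5 without DMSO 30 h replicate 2 and 16 without DMSO 30 h replicate 1. The 6 became 18 without DMSO 30 h replicate 1, 1 without DMSO 6 h replicate 2 or either BRM014 6 h replicate, 2 without DMSO 6 h replicate 1 or BRM014 30 h replicate 1, 3 without DMSO 30 h replicate 2 and 15 with the replicate number as a block. The number of sterol genes that followed Hmgcs1 thus rests on which libraries are used. Mvk, Idi1 and Ebp are named after their values were seen.

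In the Wnt pathway, where Rnf43 was the member, 4 of 18 other tested genes were higher with time in DMSO (Wnt4, Fzd1, Fzd2 and Fzd7) and 3 were lower (Lgr6, Wnt7a and Ror1), beside 18% and 17.2% of all genes, with a median log2 change of 0.08. Lgr5, an R-spondin receptor that acts against Rnf43, was at 0.0475 and 0.3 CPM in DMSO at 6 h, 1.55 and 4.17 in DMSO at 30 h, 0.103 and 0 in BRM014 at 6 h, and 0 and 0.501 in BRM014 at 30 h. It exceeded 1 CPM in DMSO 30 h libraries alone and is left out of the count, without a test. The difference was higher for Lgr6 and Wnt7a and lower for Fzd1, beside 3.89% and 2.59% of all genes. The calls on Lgr6 and Wnt7a were kept in 14 and 12 of 15 alternative settings. In DMSO, the calls on Fzd1 and Fzd7 were lost without DMSO 6 h replicate 1 or DMSO 30 h replicate 2, that on Fzd2 without DMSO 6 h replicate 2 or DMSO 30 h replicate 1, and that on Ror1 without DMSO 6 h replicate 1. On leaving out replicate 2 of BRM014 at 30 h, no Wnt gene passed for the difference, and the call on Fzd1 was lost in 6 of 15 alternative settings. Wnt4, Fzd1, Fzd2, Fzd7 and Ror1 are named after their values were seen.

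Genes of the cell cycle moved with time in both treatments. Of 42 tested genes of DNA replication and mitosis, 25 were lower at 30 h in DMSO and 40 under BRM014, against 17.2% and 16.9% of all genes, with medians of -0.32 and -0.62. The difference between the time effects was lower for 6 of the 42 and higher for 1, beside 2.59% and 3.89% of all genes. Its median was -0.26, and 35 of the 42 did not pass. The 25 became 15 without DMSO 6 h replicate 1. Kif23, a kinesin of cytokinesis, fell in DMSO (-0.73 ± 0.10, adjusted p = 0.000172), as did Cdc6, a factor of replication licensing (-0.67 ± 0.10, adjusted p = 0.000264), and the proliferation marker Mki67 (-0.70 ± 0.10, adjusted p = 0.000307). Under BRM014 they changed by -0.94 ± 0.10, adjusted p = 2.62e-05, -1.05 ± 0.10, adjusted p = 1e-05 and -0.74 ± 0.10, adjusted p = 0.000173. Their part in the levels of the 50 genes was not tested.

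The 6 genes outside the 50 whose course over the 8 libraries was most like the mean course of the 50 were Tmem98, Idh1, Srd5a3, C1s2, Slc17a1 and Egln3, with Pearson's r between 0.975 and 0.988 over 8 libraries among 10069 candidates. The libraries of a group share their treatment and time, so the coefficient describes likeness only. It also takes no account of the size of a change: Tmem98, Srd5a3 and Egln3 had DMSO ratios of only 1.498, 1.308 and 1.767, under the limit of 2. Idh1, cytosolic isocitrate dehydrogenase, was at 106 and 123 CPM in DMSO at 6 h, 370 and 477 at 30 h, 108 and 111 under BRM014 at 6 h, and 149.6 and 137 at 30 h. It missed the set by a BRM014 ratio of 1.308. C1s2, a complement protease, and Slc17a1, a phosphate transporter, were under 1 CPM on average in DMSO at 6 h and at 7.8 and 6.65 CPM at 30 h.

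Few of the 50 genes lay next to each other. In the RefSeq gene order, 4 pairs had at most 10 genes of the table between them: 4933431E20Rik and Gstm2 on chromosome 3 (4 between), Apbb1 and Hpx on chromosome 7 (0 between), and on chromosome 8 Pllp and Adgrg1 (9 between) and Adgrg1 and Kifc3 (3 between). They hold 7 genes, 14% of the 50, beside 25.4% of the 185 and 44.3% of the 438, which as larger sets lie more densely. Apbb1 and Hpx, direct neighbours, differed under BRM014 at 30 h, at 0.659 and 0.101 of DMSO. 4933431E20Rik and Gstm2 differed more, at 2.08 and 0.109. In GENCODE vM21, exons of 8 of the 50 genes overlapped another gene of the table on the opposite strand: Selenop, Tmem176b, Acat3 and Tm7sf3, named above, and 4933431E20Rik, Kifc3, Nme3 and Rab3a. Reads there cannot be assigned with certainty without the strand setting. Nme3 also overlaps Mrps34, a gene of the table on the same strand, so its reads would stay uncertain even with that setting.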

How the data were processed

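Total RNA of 8 samples (4 groups of 2) was made into libraries with a strand-marking kit and sequenced, per the labels' protocols. The deposited values are raw counts for each gene symbol and Entrez number. Tools and build named in the submitters' processing notes are mm9, Subread, featureCounts and SAMtools 0.1.19. Their order, the annotation and the strand setting are not stated in the labels. The 2 samples of a group are called biological replicates, with no word on separate cultures, so the tests measure only the spread between these samples, which may be technical.

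CPM were computed from column totals and the rule was applied to group means. Counts were fitted with edgeR 4.0.16 in R 4.3.3: filterByExpr (11835 of 21240 genes, 55.7%), TMM factors (0.935 to 1.05), 1 quasi-likelihood fit over the 4 group means with 4 residual degrees of freedom, 2-sided tests and Benjamini-Hochberg adjustment over all genes tested, with 0.05 as the threshold. The fitting code was tested on simulated data. The SE is the absolute log2 change over the square root of F. Library totals of 17859693 to 29955366 counts limit precision for genes of a few CPM.

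The members and lists were chosen with earlier results of these data known. The lists of liver-type plasma proteins, liver-enriched transcription factors, immediate-early genes and sterol synthesis were written after the members were known. The lists of complement and acute phase, Wnt pathway, and replication and mitosis were written with the design, and those described here were selected among more such lists with values in view. Counts over lists exclude members. Values in every library are given for the 8 members with the largest DMSO ratio, the 6 with the highest DMSO 30 h level, the 8 lowest under BRM014 relative to DMSO at 30 h, the 4 highest under BRM014 relative to DMSO at 6 h and any member of a list written with the design, passing over predicted and clone-named genes (symbols with LOC or Gm and a number at the start, or Rik at the end). Bmp2 and Ier2 were given library by library after their values were seen. Outside the 50, the 3 genes of a list with the smallest p for time in DMSO, the 2 genes on each side of every threshold and the 6 most similar genes are named. Some genes that these rules name are not reported here.

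Alternatives were RLE factors, library totals, no filter, 1 CPM or more in 4 or more libraries, limma-voom (limma 3.58.1), DESeq2 1.42.0, the replicate number as a block, leaving out each library, and other limits of the rule. Promoters were taken from RefSeq on GRCm38.p6 by Entrez ID and searched on both strands, and overlaps from GENCODE vM21.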

Additional observations from a re-analysis of the deposited data

Results flagged for a closer look

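For 25 named genes outside the 50, the change from 6 h to 30 h differed between BRM014 and DMSO, by the test of that difference itself (edgeR, adjusted over 11835 genes, n = 2 libraries a group). Genes above 1 CPM in DMSO 30 h libraries alone are left out. The values below are log2 differences, BRM014 minus DMSO, with their SE, and a negative value means that the log2 change from 6 h to 30 h was lower under BRM014 than in DMSO.

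Among the liver-type plasma protein genes, the difference was Rbp4 -1.10 ± 0.13 (adjusted p = 0.000257), Apob -2.03 ± 0.48 (adjusted p = 0.0216) and Afp -1.51 ± 0.32 (adjusted p = 0.0124). Among the liver-enriched transcription factor genes, the difference was Foxa2 -0.73 ± 0.19 (adjusted p = 0.0373) and Nr1h4 1.51 ± 0.29 (adjusted p = 0.00681). Among the complement genes, the difference was Cfb -5.52 ± 0.48 (adjusted p = 3.92e-05), Lbp -1.59 ± 0.29 (adjusted p = 0.00484), C1s1 -2.07 ± 0.49 (adjusted p = 0.0235) and Cd55 1.51 ± 0.39 (adjusted p = 0.0354). Among the immediate-early genes, the difference was Btg2 -1.25 ± 0.21 (adjusted p = 0.00284), Zfp36 -0.62 ± 0.16 (adjusted p = 0.0386), Srf -0.77 ± 0.16 (adjusted p = 0.0117), Atf3 1.15 ± 0.22 (adjusted p = 0.00772), Fosl2 0.54 ± 0.15 (adjusted p = 0.0437), Ier3 1.31 ± 0.23 (adjusted p = 0.00441), Klf6 0.81 ± 0.17 (adjusted p = 0.0145) and Nr4a1 1.51 ± 0.32 (adjusted p = 0.0121). Among the sterol synthesis genes, the difference was Acat2 -0.88 ± 0.15 (adjusted p = 0.00378), Mvk -0.59 ± 0.15 (adjusted p = 0.0354), Idi1 -0.93 ± 0.25 (adjusted p = 0.0463), Fdps -0.67 ± 0.17 (adjusted p = 0.0334) and Ebp -0.57 ± 0.13 (adjusted p = 0.0207). Among the Wnt pathway genes, the difference was Lgr6 2.21 ± 0.45 (adjusted p = 0.0103), Wnt7a 2.04 ± 0.42 (adjusted p = 0.0108) and Fzd1 -0.94 ± 0.22 (adjusted p = 0.0205).

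The calls on Acat2, Btg2, Cfb, Ier3, Lbp, Nr1h4 and Rbp4, 7 of the 25, were kept in all 15 alternative settings. The other 18 were lost in at least 1, and Cd55, Fosl2 and Idi1 were lost most often, being called in 7, 7 and 8 of 15.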

How the results depend on the processing

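The number of genes that met the rule was 47 with TMM-scaled CPM (40 of them among the 50), 44 with RLE-scaled CPM (39) and 59 with 0.5 CPM added before the ratios (45). It was 310 with a DMSO ratio of at least 1.5 and 14 with at least 3, 18 with a BRM014 ratio of at most 1 and 101 with at most 1.6, and 90 with no limit at 6 h. Leaving out 1 library gave 35 to 99 genes, the latter without DMSO 6 h replicate 2. With library totals in place of TMM, 1691 genes were higher and 1391 lower under BRM014 at 6 h, beside 1106 and 1709, and 2754 were higher and 1424 lower over time in DMSO, beside 2133 and 2034. The difference between the time effects was higher for 719 and lower for 590 genes with no filter, beside 460 and 306. Samples of the same number are not tied to each other by the labels, and their deviations from the group means correlated by 0.0121 to 0.202. With the replicate number as a block, the difference was higher for 726 and lower for 511 genes, and these counts are not read as a paired design.

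Leaving out 1 library gave these ranges: over time in DMSO, 1293 to 2160 genes higher and 1038 to 2097 lower. Over time under BRM014 it gave 1229 to 2492 higher and 998 to 2222 lower. For BRM014 against DMSO it gave 416 to 1415 higher and 999 to 1874 lower at 6 h, and 1460 to 2004 higher and 1608 to 2217 lower at 30 h. For the difference it gave 200 to 533 higher and 130 to 388 lower. The lowest of these counts came without a 6 h library, except for BRM014 against DMSO at 30 h, where they came without BRM014 30 h replicate 2. The lone sample left in a group was then assumed to vary like the others. No result changed direction while called. The rule fixes the sign of the change in DMSO and of the difference for the 50 genes, and largely that at 30 h, so their signs across settings say nothing of stability. The sign was the same in all 16 fits for 38 of the 50 at 6 h and for 31 over time under BRM014. With 2 libraries a group and levels of a few CPM, small differences were not detectable.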

Other observations

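Among the genes left out by the prefix of their symbol, 3 met all 4 limits. Mmp19, a metalloprotease, was at 1.14 and 1.15 CPM after 6 h and 6.25 and 3.55 after 30 h of DMSO, and 0.827 and 0.386 after 6 h and 0.28 and 0.1 after 30 h of BRM014. Slc16a10, a transporter of aromatic amino acids, had group means of 21.1 and 50 CPM in DMSO and 21.4 and 25.9 under BRM014, at 6 h and 30 h. Slc5a3, a transporter of myo-inositol, had means of 46.3 and 97.4 CPM in DMSO and 77.8 and 95.7 under BRM014. Its mean thus reached the DMSO 30 h level without a large change with time, but its libraries differed widely. They were at 72.5 and 122 CPM in DMSO at 30 h, 66.4 and 89.2 in BRM014 at 6 h, and 66.5 and 125 in BRM014 at 30 h.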
